A study of Sus scrofa with 12 samples.

Results

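Untreated porcine aortic valvular interstitial cells that had been passaged on tissue culture polystyrene (P2) were compared with freshly isolated, uncultured cells of the same tissue (P0). The comparison rests on the 3 untreated P2 arrays and the 3 P0 arrays of a series of 12, and a positive log2 fold change means a higher level in P2. The other 6 arrays hold P2 cells given 5 ng/ml of porcine TGF-β1 during 8 h or 24 h, and they enter the filter on low values, the choice of each gene's probe set, the estimate of spread and a few values set side by side. All cells came from aortic valves of adult pigs and were released with collagenase II. P0 cells received no culture and no treatment. P2 cells had gone through 2 passages in medium with 15% fetal bovine serum, and were then kept in 1% fetal bovine serum and collected at 3 days of culture without TGF-β1. Strain, sex and age beyond adult are not given in the labels, nor whether a P0 and a P2 array share an animal. The labels call the 3 arrays of each group biological replicates, so the errors below cover the spread between such replicates. Release from tissue, serum, plastic, passage and time in culture all differ between the groups together and cannot be told apart.

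Valvular interstitial cells are the fibroblast-like cells of the heart valve leaflet, where they keep up the collagen and proteoglycan matrix. In a healthy adult leaflet most of them are quiescent, and they can be activated to myofibroblasts that carry contractile fibres and divide. Stiff plastic and serum are known to activate fibroblasts, while enzymatic release of cells from tissue is known to induce early stress-response genes in many cell types. A digest of a leaflet can also hold endothelial cells from its surface and macrophages from its interior.

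Expression is given as log2 values per probe set of an Affymetrix porcine 3' array, so 1 unit is a doubling. The values ran from 1.74 to 15.95, and between 16758 and 17247 probe sets of each of the 6 arrays lay over log2 4. Correlations between arrays of a group ran from 0.985 to 0.993, and those between a P0 and a P2 array from 0.866 to 0.881. The median SD between replicates was 0.170 in P0 and 0.157 in P2. Vimentin (VIM), the intermediate filament protein of mesenchymal cells, read 15.61, 15.64 and 15.61 in P0 and 15.52, 15.56 and 15.65 in P2, and the groups overlapped. PDGFRB, a growth factor receptor of mesenchymal cells, read 11.59, 11.98 and 11.57 against 11.37, 11.53 and 11.68. Both genes of mesenchymal cells were thus high in both groups. Of the 16 fibroblast and valve interstitial cell markers tested, which include both, 9 fell and 1 rose, as given further on. MYH11, PDGFRA and RUNX2 were not among the tested genes.

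P2 replicate 3 stood apart from the other 2 P2 arrays. It lay over 1 log2 unit above both of them at 96 probe sets and below both at 148, whereas no other array of the 2 groups exceeded 24 above or 44 below. The genes that follow were chosen after their values were seen. The endothelial junction cadherin CDH5 read 9.96 and 10.79 in P2 replicates 1 and 2 but 6.72 in replicate 3, with all P0 arrays between 7.93 and 8.00. TEK, the angiopoietin receptor of endothelial cells, read 6.20, 6.87 and 3.06 in the 3 P2 arrays. The fructose transporter SLC2A5 read 8.98, 9.47 and 5.71, and the neuronal serpin SERPINI1 read 8.45, 9.35 and 5.61. EIF1AY, a translation factor gene placed on chromosome Y by RefSeq, read 7.44 and 7.67 in replicates 1 and 2 and 2.93 in replicate 3, while the P0 arrays read 8.39 to 8.61. TGF-β1 arrays with number 3 were low in EIF1AY as well, at 3.86 after 8 h and 3.25 after 24 h. The number 3 cultures therefore shared a low EIF1AY reading that none of the P0 arrays had. Counts below use all arrays. The count without P2 replicate 3 is added where it differs by over 1.5 times and for some smaller moves, so a count given once may still differ by a few genes without it.

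**Figure D1:**
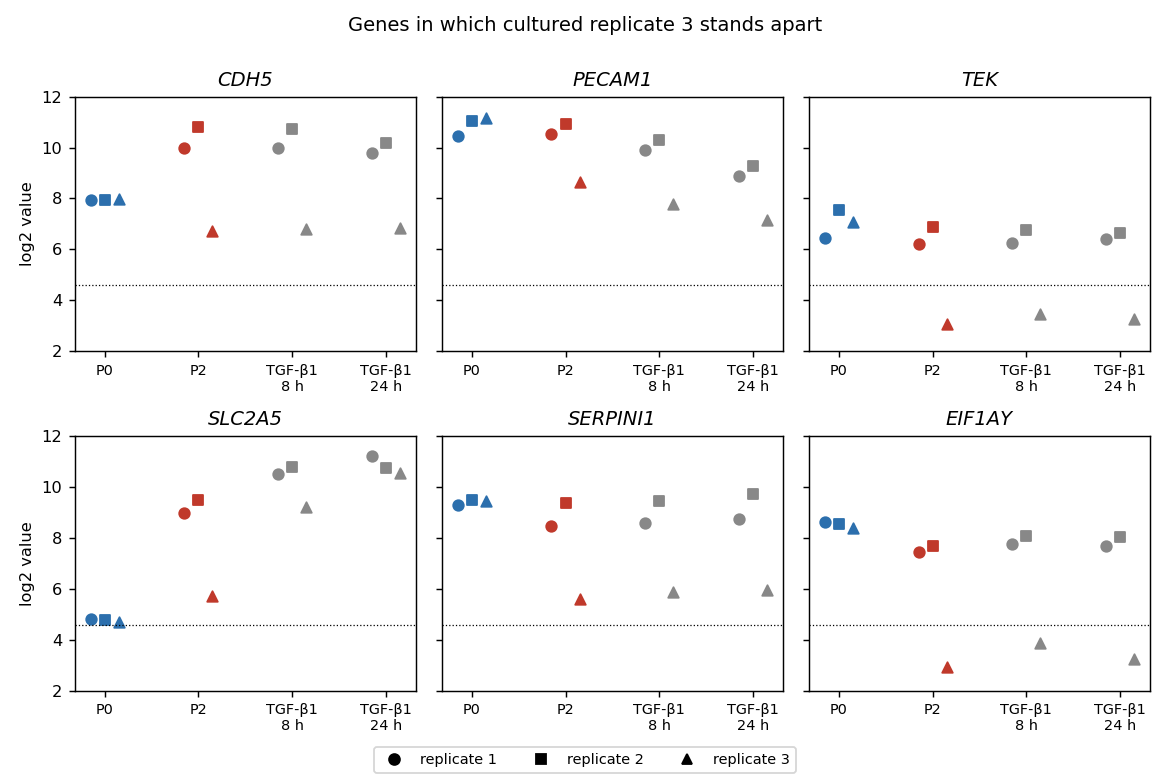
Log2 values of 6 genes, chosen after their values were seen, on all 12 arrays. Marker shapes are replicate numbers, blue is P0, red is untreated P2, grey is P2 with TGF-β1, and the dotted line is the 95th percentile of the array's control probe sets (4.58). In P2, replicate 3 lies below the other 2 arrays in every panel, for example at 3.06 against 6.20 and 6.87 for TEK.

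The difference between P0 and P2 was broad. Of 6014 genes tested, 66.3% passed limma's test at an adjusted p under 0.05, 42.1% higher in P2 and 24.2% lower. Calls of at least 2-fold took in 18.2% of genes higher and 12.9% lower, and at 72% of genes every P0 array lay on one side of every P2 array. The median log2 fold change of all genes was 0.20. Over probe sets, including those without a gene name, 59.4% were called, 33.6% higher and 25.8% lower, and the arrays of the groups did not overlap at 65.1%. Any count for a gene group has to be read against these shares. A call says only that a gene differed beyond the spread between arrays, and 2026 genes were not called. Without P2 replicate 3, 5607 probe sets were higher and 4254 lower, against 5933 and 4550 with it.

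**Figure D2:**
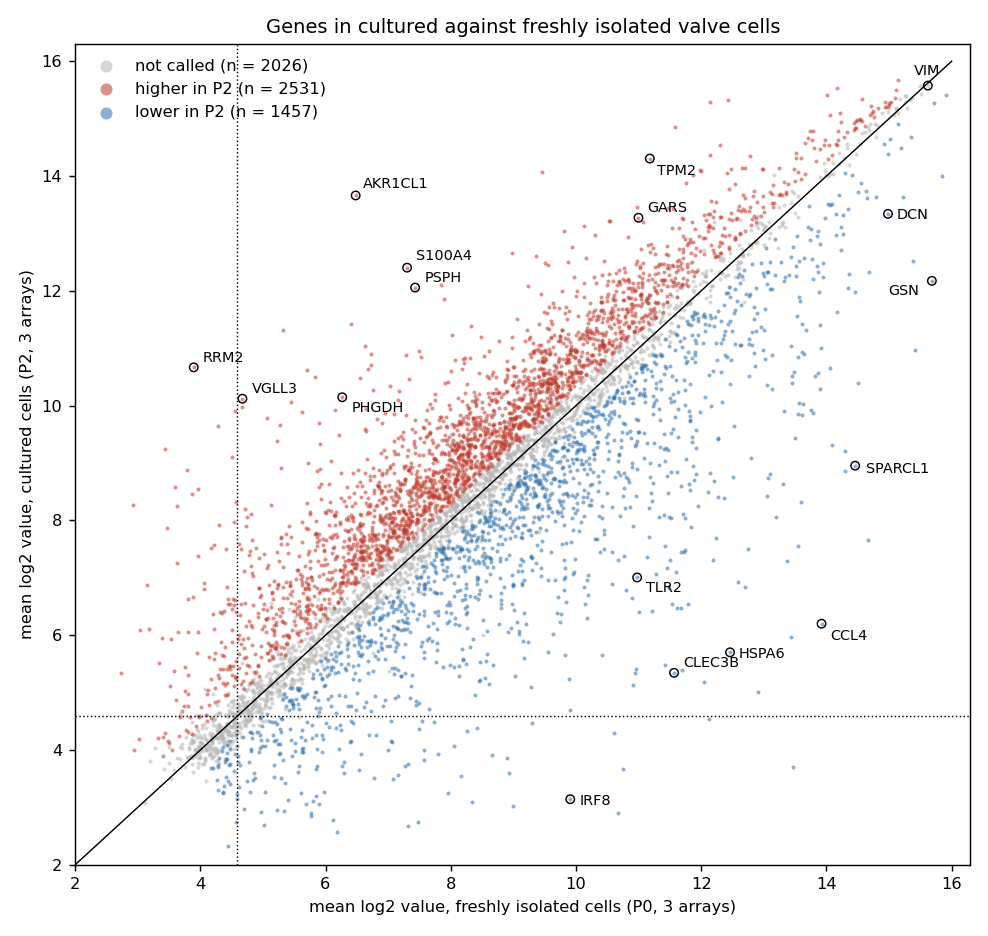
Mean log2 value of each of 6014 genes over the 3 P0 arrays (x) and the 3 P2 arrays (y), with red for genes higher in P2 (2531), blue for lower (1457) and grey for genes not called (2026). The solid line marks equal values and the dotted lines the control level of 4.58, under which a fold change is given as a lower bound; VIM lies on the line of equality while AKR1CL1 and GSN lie far from it.

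Errors after ± are limma standard errors of a log2 fold change with 3 arrays in each group. Where a group mean lay under 4.58, the 95th percentile of the control probe sets, the fold is a lower bound. The largest rise was in AKR1CL1, an aldo-keto reductase, which read 6.10, 6.37 and 6.97 in P0 and 13.78, 13.59 and 13.61 in P2. Other large rises were in MELK, a kinase of dividing cells (39.7-fold, log2 fold change 5.31 ± 0.227), in S100A4, a calcium-binding protein of motile fibroblasts (5.10 ± 0.426), and in PSPH, the last enzyme of serine synthesis (4.63 ± 0.168). PCK2, the mitochondrial enzyme that makes phosphoenolpyruvate, rose at least 12.7-fold. The large falls included IRF8, a transcription factor of myeloid cells, which read 9.91, 9.94 and 9.88 in P0 and 2.95, 3.28 and 3.19 in P2. HSPA6, a strictly stress-inducible heat shock protein, fell 108-fold (-6.76 ± 0.190). CLEC3B, the plasminogen-binding protein tetranectin, read 11.42, 11.57 and 11.71 in P0 and 5.47, 5.34 and 5.22 in P2, a fall of 6.22 on the log2 scale. RNASE1, a secreted ribonuclease, fell by 5.76 ± 0.262, and RGS1, a brake on G protein signalling in leukocytes, fell at least 21.3-fold. The 20 largest changes each way were taken only from called genes whose P0 and P2 arrays did not overlap. The separation of the groups in these genes is thus no result.

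**Figure D3:**
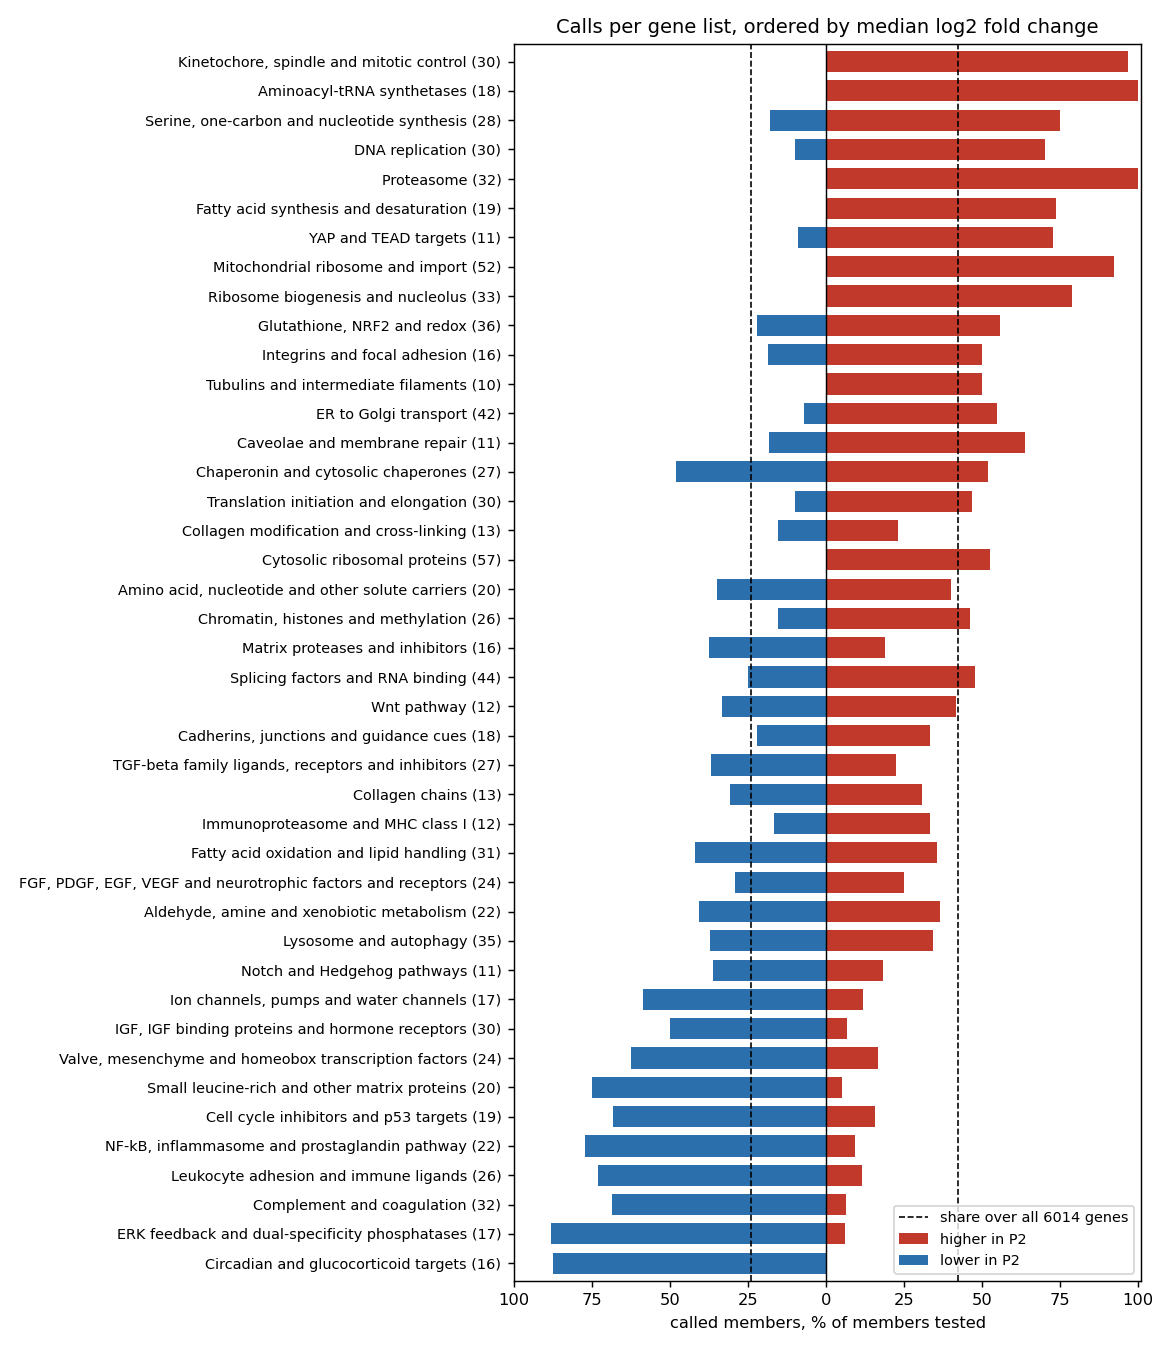
Share of each gene list called higher (red, to the right) or lower (blue, to the left) in P2, in percent of the members tested, whose number stands in brackets. Dashed lines are the shares over all 6014 genes, 42.1% and 24.2%. Lists are ordered by median log2 fold change. The tRNA synthetases and the proteasome have all members higher, while DNA replication, also near the top, holds some members called lower. Lists at the bottom have most members lower.

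Genes of actin assembly gave rises in every measured part of one complex. All 8 measured subunits of the Arp2/3 complex, which nucleates branched actin, rose by 0.45 to 1.76. CDC42EP3, an effector of the small GTPase CDC42, read 9.54, 9.46 and 9.52 in P0 and 12.41, 12.33 and 12.70 in P2 (2.97 ± 0.214). The actin cross-linker filamin A (FLNA) rose by 2.51 ± 0.137, the capping protein CAPG by 2.14 ± 0.160 and the severing protein cofilin 2 (CFL2) by 1.83 ± 0.114. Gelsolin (GSN), which severs actin filaments, read 15.67, 15.66 and 15.72 against 12.10, 11.57 and 12.85, a fall of 3.51 ± 0.361 with replicate 3 the highest of the P2 arrays. In the 5 genes named here no array of one group reached the other. They were picked for large called changes, and 72% of all genes did not overlap, so this separation is no result.

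The contacts of the cytoskeleton with matrix and nucleus showed a mixed picture. Of 16 integrin and focal adhesion genes 8 rose and 3 fell (median 0.47), and 10 rose without P2 replicate 3. With all arrays the share of rises, 50%, was near the 42.1% of all genes. Vinculin (VCL), which ties integrins to actin, read 12.51, 12.38 and 12.56 in P0 and 14.09, 14.10 and 14.17 in P2 (1.64 ± 0.0967). The PDZ-LIM adaptors PDLIM7 (2.46 ± 0.160) and PDLIM5 (2.23 ± 0.123) rose as well. The integrin subunit ITGB5 (-1.15 ± 0.217) and tensin 3 (TNS3, -1.61 ± 0.245) fell, as did ITGA2, a collagen receptor subunit, at least 2.42-fold. In the tubulin and intermediate filament list 5 of 10 genes rose and 0 fell (median 0.43), a share of rises also near that of all genes. Tubulin β (TUBB) read 10.23, 10.04 and 10.11 in P0 and 13.12, 13.04 and 13.22 in P2, and the nuclear lamin LMNB1 rose by 1.96 ± 0.169. Of 11 genes for caveolae and membrane repair 7 rose and 2 fell. S100A4 read 6.87, 8.18 and 6.85 in P0, a spread wider than usual, and 12.78, 11.75 and 12.68 in P2. CAVIN2, a coat protein of caveolae, fell by 2.57 ± 0.257.

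TEAD factors and their cofactor YAP carry signals from cell spreading and stiffness to gene expression. Of 11 genes of this pathway or known as its targets 8 rose and 1 fell, with a median of 1.00. VGLL3, a TEAD cofactor, read 5.06, 4.92 and 4.04 in P0 and 9.93, 10.07 and 10.37 in P2. CRIM1, a transmembrane protein that binds growth factors, rose by 2.70 ± 0.182, and TEAD1 itself by 1.41 ± 0.155. The target gene ANKRD1 read 4.50, 3.49 and 3.38 in P0 and 9.51, 10.07 and 7.07 in P2, and replicate 3 was the lowest P2 array. Its P0 mean lay under the control level, and the rise was at least 19.7-fold with all arrays, at least 36.9-fold without P2 replicate 3 and at least 13.1-fold without P2 replicate 2. AMOTL1, an angiomotin-family protein that binds YAP, fell by 1.59 ± 0.135.

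Matrix genes did not move as a block. Of 13 collagen chains 4 rose and 4 fell (median 0.08, which fell below 0 with arrays centred on their medians and was -0.06 without P2 replicate 3, with 3 rises and 3 falls), while of 20 other matrix proteins 15 fell and 1 rose, with a median of -1.0. All 5 measured small leucine-rich proteoglycans, which space collagen fibrils, fell. In this set, named after its values were seen, the log2 fold changes were -2.34 for PRELP, -1.75 for ASPN, -1.64 for decorin (DCN), -0.80 for BGN and -0.50 for lumican (LUM). Decorin read 15.03, 14.99 and 14.93 in P0 and 13.31, 13.19 and 13.52 in P2. The lumican call was lost without P0 replicate 1 (adjusted p = 0.0580), P2 replicate 1 (0.0506) or P2 replicate 2 (0.0558). SPARCL1, an anti-adhesive relative of SPARC, read 14.49, 14.55 and 14.34 against 8.86, 8.11 and 9.89, a 45.4-fold fall. The microfibril protein MFAP5 fell by 3.36 ± 0.148, fibulin 1 (FBLN1) by 2.95 ± 0.183 and periostin (POSTN) by 1.21 ± 0.199. NID2, which links laminin and collagen in basement membranes, was the 1 gene of this list that rose (1.25 ± 0.231).

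Among collagens, COL8A1 read 10.90, 11.31 and 11.32 in P0 and 12.80, 12.85 and 12.38 in P2 (1.5 ± 0.153), and COL5A2, a regulator of fibril diameter, rose by 1.11 ± 0.153. COL5A3 fell by 2.82 ± 0.563 and COL15A1, a basement membrane collagen, by 0.73 ± 0.146. COL1A2 read 9.23, 9.55 and 9.69 against 9.17, 9.24 and 8.74, with overlapping groups. Its call as lower (-0.44 ± 0.169) was lost without P0 replicate 2 (adjusted p = 0.101), P0 replicate 3 (0.144) or P2 replicate 3 (0.172) and in a fit of the P0 and untreated P2 arrays alone (0.0725), and the mean over all its probe sets was higher in P2 (0.89). The other 2 collagen chains called higher were COL11A1 and COL2A1. COL11A1 had both group means under the control level (3.78 in P0, 4.35 in P2), with overlapping groups. With values under that level raised to it, its log2 fold change was 0.01 (adjusted p = 0.592). COL2A1 rose by 0.29 ± 0.110, a call lost in several fits, such as without P2 replicate 3 (adjusted p = 0.108). The fall of COL7A1 ended under the control level (P2 mean 4.15). The count of collagen chains that rose was 2 instead of 4 without P0 replicate 2 or without P0 replicate 3. Of 13 collagen-modifying enzymes 3 rose and 2 fell. Without P2 replicate 3, 5 rose, and without P2 replicate 1 or without P2 replicate 2, 1 fell. The cross-linking enzyme LOXL4 read 5.79, 5.67 and 6.03 in P0 and 10.50, 10.55 and 10.42 in P2. FKBP10, a collagen chaperone, rose by 1.67 ± 0.130 and the lysyl hydroxylase PLOD1 by 0.82 ± 0.181. PCOLCE2, which speeds the trimming of procollagen, read 13.55, 13.75 and 13.74 against 11.51, 10.99 and 11.47.

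Proteases and their inhibitors split between both directions, with 3 rises and 6 falls among 16 genes. The secreted inhibitor TIMP1 read 14.05, 13.72 and 14.26 in P0 and 15.50, 15.59 and 15.16 in P2 (1.41 ± 0.178), whereas TIMP3, an inhibitor held in the matrix, fell by 3.48 ± 0.569. The gelatinase MMP2 fell by 1.58 ± 0.224, the disintegrin ADAM15 by 2.26 ± 0.122, and the membrane sheddase ADAM9 rose by 1.15 ± 0.157. ADAMTS1, which cleaves versican and aggrecan, read 13.64, 13.54 and 13.45 in P0 and 10.70, 9.37 and 12.46 in P2. Its log2 fold change of -2.70 became -3.51 without P2 replicate 3 and -1.96 without P2 replicate 2.

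Genes that charge tRNA and those that build ribosomes rose widely. All 18 measured aminoacyl-tRNA synthetases and their scaffold proteins rose, by 0.50 to 2.73 with a median of 1.45, and 17 of them at least 2-fold. MARS, the methionyl-tRNA synthetase, read 8.00, 7.91 and 8.12 in P0 and 10.59, 10.74 and 10.46 in P2. The enzyme for tryptophan (WARS) read 7.85, 8.02 and 8.32 against 11.01, 11.04 and 10.35, and those for glycine (GARS, 2.28 ± 0.131) and histidine (HARS, 2.13 ± 0.152) followed. Of 33 genes of ribosome biogenesis 26 rose and 0 fell, with a median of 0.82, and 24 rose without P2 replicate 3. POLR1B, a core subunit of the RNA polymerase that transcribes ribosomal RNA, read 4.49, 5.08 and 4.54 in P0 and 7.01, 7.16 and 7.18 in P2. The assembly factors WDR12 (1.93 ± 0.154), BYSL (1.76 ± 0.171) and LYAR (1.64 ± 0.173) rose with it.

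Ribosomal protein genes themselves moved far less. Of 57 cytosolic ribosomal proteins 30 rose and 0 fell, none by 2-fold, with a range of -0.11 to 0.77 and a median of 0.26, close to the 0.20 of all genes. Their mean level was 14.17 to 14.22 in the P0 arrays and 14.47 to 14.48 in the P2 arrays, near the top of the range of values. Without P2 replicate 3, 23 of the 57 rose. The largest change was in RPSA, also a laminin receptor, which read 14.55, 14.52 and 14.65 in P0 and 15.41, 15.37 and 15.27 in P2. Of 30 initiation and elongation factors 14 rose and 3 fell, a share of rises near that of all genes. EIF2S2 (1.35 ± 0.124) and EIF2S1 (1.08 ± 0.112), subunits of the factor that brings the first tRNA, and EIF3B (1.30 ± 0.169) were higher. The helicase EIF4A2 fell by 1.13 ± 0.126 and EIF1, which helps to choose the start codon, by 0.67 ± 0.0932.

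Mitochondrial protein synthesis and import rose in 48 of 52 genes, and 0 fell, with a median of 0.92. All 22 proteins of the large mitochondrial ribosomal subunit rose, as did 14 of 15 of the small subunit. Among 15 genes of import and mitochondrial chaperones 12 rose. MRPS34 read 8.48, 8.11 and 8.84 in P0 and 11.18, 11.20 and 11.22 in P2, and MRPS12 rose by 2.07 ± 0.187, MRPL2 by 1.86 ± 0.120 and MRPL16 by 1.85 ± 0.106. The inner membrane carriers that exchange ADP for ATP or take up phosphate belong to the solute carrier list below. These carriers rose in all 4 measured cases, SLC25A5 by 1.38 ± 0.124. Each of these subgroups was formed by complex or function, not by value, but after the values were known.

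The proteasome, which degrades ubiquitin-tagged proteins, rose in all 32 of its measured genes, by 0.28 to 2.37 with a median of 1.14. No P0 array reached a P2 array in any of the 32, while over all genes 42.1% were called higher and 72% did not overlap. Both parts took part, the 14 genes of the 20S core with a median of 1.27 and the 17 of the 19S cap with a median of 0.98. PSMA5, a core subunit, read 9.64, 9.23 and 9.60 in P0 and 11.65, 11.67 and 11.57 in P2. PSMD5, a chaperone of cap assembly, rose by 2.02 ± 0.143, and PSME3, a nuclear activator of the core, by 2.37 ± 0.172. With P2 replicate 3 left out 28 of the 32 still passed. In the list of immunoproteasome and MHC class I genes 4 of 12 rose and 2 fell. The interferon-inducible parts PSME2 (1.46 ± 0.175), PSME1 (1.45 ± 0.139), PSMB8 (1.44 ± 0.303) and PSMB10 (0.85 ± 0.110) were the 4 that rose. The pig class I molecules SLA-2 (-0.72 with all arrays) and SLA-6 (-0.45) were the 2 that fell, and neither was called without P2 replicate 3 (adjusted p = 0.0740 and 0.0871), P0 replicate 1, P0 replicate 2 or P2 replicate 2.

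Chaperones divided by kind, in subgroups formed after the values were seen. All 27 measured genes were called, 14 higher and 13 lower, and in none of them did the groups overlap. Over all genes 66.3% were called, and the groups did not overlap at 72%. Without P2 replicate 3, 12 were higher and 13 lower. Each of the 6 measured subunits of the CCT chaperonin, which folds actin and tubulin, rose, by 0.35 to 1.13, and so did all 5 prefoldin subunits, which hand over those clients, by 0.37 to 1.33. CCT8 read 11.82, 11.74 and 11.92 in P0 and 12.90, 12.90 and 12.91 in P2. Among 16 heat shock proteins and co-chaperones 13 fell and 3 rose, with a median of -1.33. HSPA6 read 12.77, 12.67 and 11.94 in P0 and 5.58, 5.73 and 5.80 in P2. DNAJB1, a stress-induced partner of HSP70, fell by 3.76 ± 0.153, the nucleotide exchange factor HSPH1 by 3.60 ± 0.146 and BAG3, which couples HSP70 to autophagy, by 3.41 ± 0.182. PTGES3, a co-chaperone of HSP90, rose by 1.29 ± 0.200.

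Secretory transport genes moved modestly and lysosomal genes both ways. Of 42 genes for transport between endoplasmic reticulum and Golgi 23 rose and 3 fell, 7 of them by 2-fold, with a median of 0.42. SSR4, of the translocon, read 12.44, 12.11 and 12.69 in P0 and 14.15, 14.11 and 13.92 in P2. The coat subunits COPZ1 (1.28 ± 0.129) and COPB1 (1.21 ± 0.123) and the signal recognition particle protein SRP9 (1.33 ± 0.104) rose, and the cargo lectin LMAN2 fell by 0.86 ± 0.0990. Among 35 lysosome and autophagy genes 12 rose and 13 fell, and 10 fell without P2 replicate 3. ATG7, which starts the conjugation step of autophagy, read 6.92, 6.63 and 7.01 against 8.94, 8.51 and 9.18, and its substrate ATG12 rose by 1.14 ± 0.114. GABARAPL1, a lipid-conjugated autophagy protein, fell by 2.06 ± 0.130, α-galactosidase (GLA) by 1.93 ± 0.106, the lysosomal lipase LIPA by 1.17 ± 0.233 and TFEB, a transcription factor of lysosomal genes, by 0.98 ± 0.132.

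**Figure D4:**
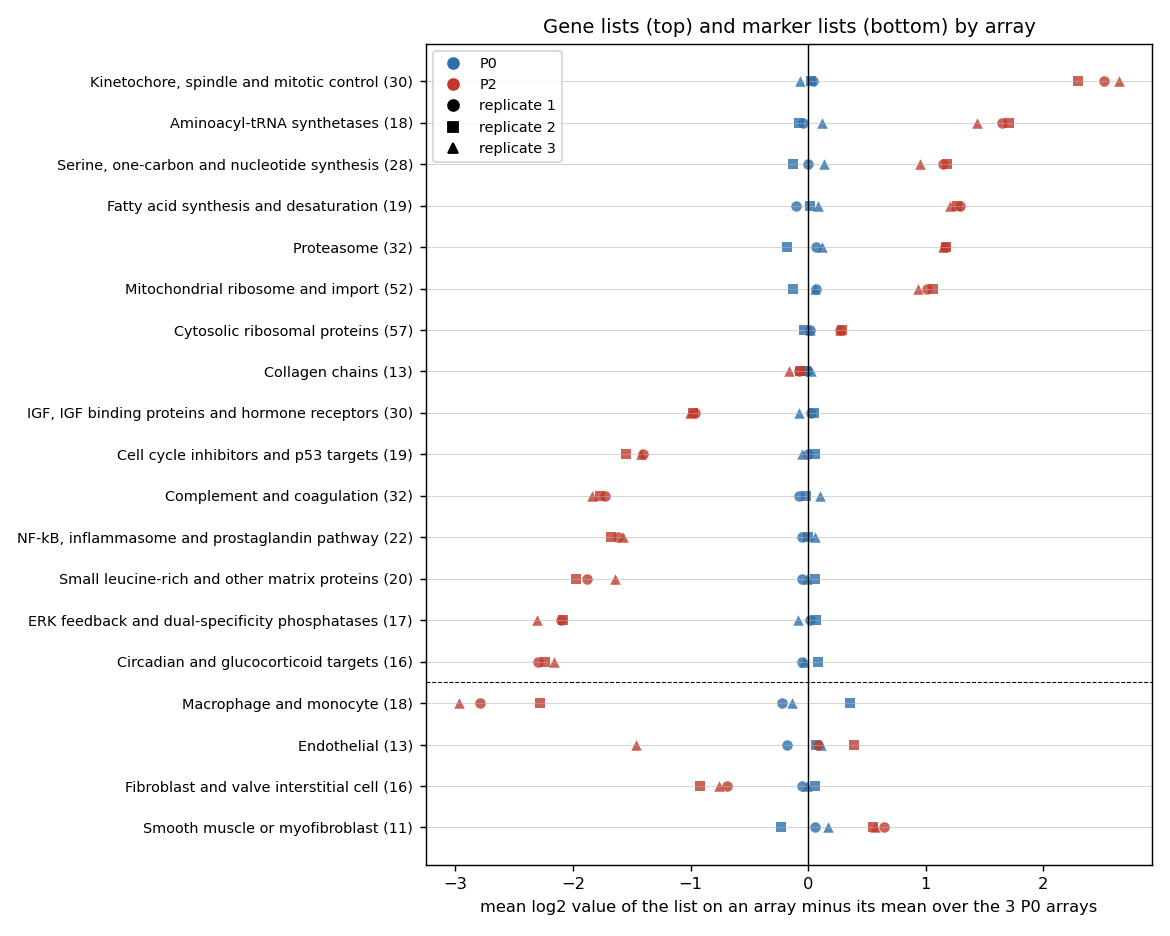
Mean log2 value of the tested members of 15 gene lists and 4 marker lists on each array, minus the list's mean over the 3 P0 arrays; blue is P0, red is P2, shapes are replicates, and the number of genes stands in brackets. The 3 P2 arrays lie close together in most lists; in the endothelial list they lie at 7.29, 7.59 and 5.74 before subtraction, with replicate 3 apart.

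Mitotic genes rose in 29 of 30 cases and 0 fell, with a median of 2.59, or 2.20 with readings below the control level set to that level. The spindle and checkpoint gene HMMR read 4.05, 3.86 and 3.68 in P0 and 8.53, 8.28 and 8.55 in P2, at least 14.6-fold. PTTG1, the inhibitor of sister chromatid separation, read 6.93, 6.59 and 6.38 against 11.17, 10.80 and 11.17. MYBL2, a transcription factor of late cell cycle genes, rose by 4.39 ± 0.214, and CDC20, which activates the anaphase-promoting complex, by 4.26 ± 0.287. CDCA3, of the same phase, rose by 4.62 ± 0.276, but it is outside this list and was named as among the 20 largest rises. Levels were similar across the 3 P2 cultures, with list means of 9.31, 9.09 and 9.44 against 6.73 to 6.84 in P0.

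Of 30 DNA replication genes 21 rose and 3 fell, with a median of 1.29. Among the 4 measured subunits of the replicative helicase 3 rose, MCM2 from 6.29, 6.31 and 5.64 to 9.0, 8.89 and 9.24 and MCM5 by 2.42 ± 0.243. Thymidylate synthase (TYMS) rose by 2.94 ± 0.232. The genes that fell were geminin (GMNN, -0.74 ± 0.159), which blocks relicensing of origins, and the polymerase subunits POLE3 (-0.62 ± 0.123) and POLD3 (-0.38 ± 0.117). The POLD3 call was lost without P0 replicate 3 (adjusted p = 0.0586) or P2 replicate 3 (0.0503).

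Brakes on the cell cycle fell alongside. Of 19 cell cycle inhibitors and p53 targets 13 fell and 3 rose, with a median of -1.39. BTG2, an antiproliferative gene of the early stress response, read 14.38, 14.45 and 14.07 in P0 and 8.73, 9.24 and 8.62 in P2, a 43.2-fold fall. GADD45B (-4.05 ± 0.181) and GADD45G (-3.42 ± 0.309), which respond to stress and DNA damage, and TOB1 (-2.95 ± 0.113), a relative of BTG2, fell too. The cyclin kinase inhibitor CDKN1A read 12.92, 12.70 and 12.69 against 11.15, 11.38 and 10.97. BAX, a promoter of apoptosis, rose by 1.26 ± 0.145 and was among the 3 that went up, with ZMAT3 (0.84 ± 0.150) and the inhibitor CDKN2D (0.67 ± 0.170).

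Of 28 genes for serine, one-carbon and nucleotide synthesis 21 rose and 5 fell, with a median of 1.31. PSPH read 7.51, 7.13 and 7.65 in P0 and 12.11, 12.16 and 11.90 in P2, and PHGDH, the first enzyme of the same pathway, read 6.47, 5.86 and 6.47 against 10.55, 10.21 and 9.67. CTPS1, which makes the cytidine nucleotide from uridine, rose by 3.29 ± 0.123 and the purine enzyme PAICS by 3.00 ± 0.161. Of 10 purine and pyrimidine genes 8 rose and 1 fell. The falls in the list included glutamine synthetase (GLUL), which read 12.97, 13.14 and 13.06 in P0 and 10.38, 10.35 and 10.36 in P2. ODC1, which starts polyamine synthesis, fell by 2.02 ± 0.184, ASS1 of arginine synthesis by 1.86 ± 0.371 and cytosolic SHMT1 fell by 0.94 ± 0.217.

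Fatty acid synthesis rose in 14 of 19 genes and fell in 0, with a median of 1.13. SCD, a fatty acid desaturase, read 7.97, 8.00 and 7.70 in P0 and 12.01, 12.13 and 11.45 in P2. The desaturase FADS1 rose by 2.43 ± 0.215, FADS2 at least 2.78-fold, and ME1, a source of NADPH for lipid synthesis, by 2.36 ± 0.202. Genes of fatty acid oxidation and lipid handling went both ways, with 11 rises and 13 falls among 31. Within that list 9 of 17 enzymes of β-oxidation rose and 3 fell, with HADHB at 1.60 ± 0.133 and ACADM at 1.32 ± 0.152. APOE, a lipid carrier also made by macrophages, read 11.27, 11.48 and 11.73 against 7.39, 7.25 and 7.29, and the cholesterol exporter ABCA1 fell by 2.65 ± 0.227. FABP3, a fatty acid carrier known from heart muscle, rose from 6.65, 6.80 and 6.85 to 10.87, 10.29 and 9.66.

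Of 36 antioxidant genes 20 rose and 8 fell, with a median of 0.51. These shares, 55.6% and 22.2%, compare with 42.1% and 24.2% of all genes. PGD, of the pentose phosphate pathway that makes NADPH, read 7.97, 7.93 and 8.15 in P0 and 11.36, 11.08 and 11.26 in P2, and all 3 measured genes of that pathway rose. Glutathione reductase (GSR, 2.24 ± 0.163), the glutathione synthesis subunit GCLM (2.08 ± 0.364) and the microsomal transferase MGST1 (2.07 ± 0.186) were higher. Of 6 peroxiredoxins, which remove peroxides, 5 rose. The metal-binding protein MT1A fell at least 26.2-fold, from 8.88, 9.19 and 9.82 to values at the control level, and the heme-degrading enzyme HMOX1 (-1.96 ± 0.336), the secreted peroxidase GPX3 (-1.18 ± 0.255) and mitochondrial SOD2 (-1.09 ± 0.205) fell. Enzymes for aldehydes, amines and foreign compounds were split, 8 higher and 9 lower of 22, with a median near 0. ALDH1A1, which makes retinoic acid, read 11.91, 12.43 and 12.08 in P0 and 8.63, 8.04 and 9.82 in P2, while monoamine oxidase MAOA fell by 1.58 ± 0.121 and EPHX1 by 1.41 ± 0.312.

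The glucose transporters went opposite ways in the list of 20 solute carriers, of which 8 rose and 7 fell. The rises include the 4 carriers of ADP, ATP or phosphate given above. SLC2A1 read 7.07, 7.18 and 6.85 in P0 and 10.31, 10.72 and 9.98 in P2, whereas SLC2A3 read 12.40, 12.28 and 12.26 against 10.70, 11.01 and 10.04. The copper importer SLC31A1 fell by 1.43 ± 0.125. The count of carriers that fell was 4 without P0 replicate 1 or without P2 replicate 1, and without P2 replicate 3 there were 7 rises and 5 falls. Among 17 ion channels, pumps and water channels 10 fell and 2 rose, with a median of -0.52. The potassium channel KCNJ8 fell by 1.77 ± 0.222 and KCNN4 at least 1.98-fold. AQP1, a water channel, read 12.76, 12.76 and 13.02 in P0 and 10.96, 9.90 and 11.89 in P2, a call lost without P2 replicate 2 (adjusted p = 0.0606). FXYD5, a modulator of the sodium pump, rose by 1.88 ± 0.141 and the chloride channel protein CLIC1 by 1.54 ± 0.118.

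Of 30 genes for hormone and insulin-like growth factor signalling 15 fell, 2 rose and 13 were not called, with a median of -0.67, or -0.42 with readings below the control level set to that level. The 2 that rose were IGF1, which read 9.95, 9.93 and 10.03 in P0 and 12.11, 12.16 and 12.43 in P2, and its receptor IGF1R (1.1 ± 0.136). PTHLH, the parathyroid hormone-like peptide, read 10.89, 10.95 and 10.87 against 6.69, 6.82 and 6.43. The calcium-regulating hormone STC1 fell at least 11-fold, the endothelin receptor EDNRB by 3.00 ± 0.214 and the growth hormone receptor GHR by 2.90 ± 0.296. Of the 8 nuclear hormone receptors tested 3 fell, among them the glucocorticoid receptor NR3C1, which read 7.58, 8.01 and 6.78 in P0 and 6.45, 6.37 and 6.02 in P2 (-1.18 ± 0.257).

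Growth factors and their receptors gave 6 rises and 7 falls among 24 genes. FGF7, a fibroblast factor that acts on epithelia, read 4.84, 4.63 and 4.85 in P0 and 7.66, 7.32 and 7.19 in P2. KITLG, the ligand of KIT, rose at least 4.66-fold, and FGF13, an intracellular member of its family, by 1.83 ± 0.359. The receptor KIT was called higher (2.15 ± 0.681), but that call was lost without P0 replicate 3 (adjusted p = 0.0641), P2 replicate 1 (0.0585) or P2 replicate 2 (0.0656), and its log2 fold change was 2.76 without P2 replicate 3. PDGFRL, a receptor-like protein without a kinase, read 13.40, 13.73 and 13.52 against 10.19, 9.48 and 9.89. HBEGF, a ligand of the EGF receptor, fell by 3.56 ± 0.278, pleiotrophin (PTN) by 3.29 ± 0.272 and FGF18, known from cartilage and bone, at least 2.04-fold. The number of rises was 3 without P2 replicate 1.

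Genes of the TGF-β family, Wnt, Notch and Hedgehog pathways showed shares of rises near or below the 42.1% of all genes. The shares of falls were above the 24.2% of all genes. They were 37.0% in the TGF-β family, 33.3% in Wnt and 36.4% in Notch and Hedgehog together, in short lists. In the TGF-β family 6 of 27 genes rose and 10 fell, with 3 rises without P0 replicate 2 and 4 rises and 9 falls without P2 replicate 3. The decoy receptor BAMBI read 12.30, 11.70 and 11.56 in P0 and 9.50, 9.23 and 9.63 in P2, the signal transducer SMAD3 fell by 2.16 ± 0.156, and the inhibitors of differentiation ID1 (-2.19 ± 0.444) and ID4 (-1.53 ± 0.182) fell. The activin receptor ACVR2A rose at least 1.84-fold. Of 12 Wnt genes 5 rose and 4 fell, and 3 rose with arrays centred on their medians and without any 1 of P0 replicates 1 and 3 and P2 replicates 1 and 2. The receptor FZD5 fell at least 3.85-fold, the transcription factor LEF1 from 8.28, 8.05 and 8.45 to 6.06, 5.96 and 6.36, and the secreted antagonist SFRP1 fell by 1.1 ± 0.228. Among 11 Notch and Hedgehog genes 4 fell and 2 rose. HES1, the classical Notch target, read 9.24, 9.45 and 8.77 against 6.43, 5.85 and 5.39. The ligand JAG1 fell by 1.34 ± 0.120 and LFNG, which modifies Notch receptors, fell by 1.94 ± 0.134. HEY2, another target of Notch, moved the other way, from 10.48, 10.45 and 10.31 to 12.16, 12.25 and 12.44.

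Early response and feedback genes of the ERK pathway were almost all lower. Of 17 tested 15 fell, 13 of them at least 2-fold, and 1 rose, with a median of -1.78. EGR1, an early response transcription factor, read 13.33, 13.19 and 12.62 in P0 and 8.72, 8.29 and 8.25 in P2, and IER3, a survival gene of the early response, 13.83, 13.89 and 14.00 against 10.86, 11.13 and 11.01. The 1 gene called higher, the phosphatase DUSP7 (0.39 ± 0.140), was not called without P0 replicate 1 (adjusted p = 0.129), P2 replicate 1 (0.0722) or P2 replicate 3 (0.0888). Of 16 circadian genes and glucocorticoid targets 14 fell and 0 rose, with a median of -2.46, and 15 fell without P2 replicate 3. TSC22D3, a glucocorticoid-induced anti-inflammatory gene, read 12.66, 12.85 and 12.88 in P0 and 9.11, 8.73 and 9.44 in P2. NFIL3, a clock-controlled transcription factor, fell by 3.30 ± 0.136, the clock repressor BHLHE40 by 3.40 ± 0.173 and the kinase SGK1 by 3.85 ± 0.351. Whether steroid in the tissue or serum differed between the groups is not given in the labels.

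Inflammatory and innate immune lists fell widely, and macrophage markers fell beside them. Of 18 macrophage and monocyte markers 16 fell and 1 rose, with a median of -2.74 and a mean level of 9.50 to 10.07 in the P0 arrays and 6.75 to 7.44 in the P2 arrays. Without P2 replicate 3, 14 fell. CD163, a scavenger receptor of tissue macrophages, read 10.57, 11.25 and 11.04 in P0 and 4.67, 5.38 and 6.17 in P2, and VSIG4, a complement receptor of the same cells, 10.62, 11.50 and 10.88 against 6.32, 7.04 and 5.88. In bulk RNA, fewer cells of a type and less RNA per cell cannot be told apart. Their part in the falls of this paragraph and the next was not tested. The 1 marker that rose on its representative probe set, SLA-DMA (1.56 ± 0.167), had another probe set called the other way, and the mean over its probe sets was -0.80.

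In the list for NF-kB, inflammasome and prostaglandins 17 of 22 genes fell and 2 rose, with a median of -1.52, or -1.18 with levels raised to the control level. The count of rises was 1 without any single P0 array or without P2 replicate 1. The NF-kB inhibitor NFKBIA, itself an NF-kB target, read 13.82, 13.76 and 13.80 in P0 and 9.76, 9.96 and 9.92 in P2. TLR2, a receptor for bacterial lipoproteins, read 10.96, 10.95 and 11.02 against 6.92, 7.03 and 7.07. The cytokine IL1A fell by 4.76 ± 0.580 and PTGDS, a prostaglandin D synthase, fell by 3.01 ± 0.159, while the receptor IL1R1 rose by 0.70 ± 0.189. Of 16 complement genes 15 fell and 0 rose, and of 16 genes of coagulation and fibrinolysis 7 fell and 2 rose. C4A read 10.84, 11.49 and 11.93 in P0 and 5.07, 5.09 and 6.28 in P2, and C1QC, a macrophage product, fell by 3.98 ± 0.235. SERPINE2, an inhibitor of thrombin, read 12.66, 12.80 and 12.89 against 14.14, 14.24 and 14.67. The plasminogen activator PLAU was called higher (0.92 ± 0.293), a call lost without P0 replicate 1 (adjusted p = 0.0533) or P2 replicate 1 (0.0708).

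Chemokines and adhesion molecules gave 19 falls and 3 rises among 26 genes, with a median of -1.55, and 17 falls and 4 rises without P2 replicate 3. The fall in 16 of 18 macrophage markers stands beside this list too, and its part was not tested. CXCL8, which attracts neutrophils, read 13.47, 13.60 and 13.37 in P0 and 10.45, 11.51 and 9.77 in P2, with replicate 3 the lowest. CCL8 fell by 5.66 ± 0.283 and CXCL12, a stromal chemokine, by 5.20 ± 0.188. AMCF-II, a pig neutrophil chemokine, moved up from 9.70, 8.94 and 9.73 to 13.63, 14.23 and 14.35. The chemokine CXCL14 rose at least 15.6-fold and CD47, which signals to phagocytes, by 0.95 ± 0.178. IL6 fell from 13.74, 13.15 and 13.70 to 11.82, 11.80 and 11.06, and it stayed far over the control level.

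Transcription factors of mesenchyme and valve were lower in 15 of 24 cases and higher in 4, with a median of -0.88. TCF21, a factor of resident fibroblasts, read 12.05, 11.97 and 11.47 in P0 and 7.79, 7.38 and 8.51 in P2. TBX2 of valve development fell by 3.48 ± 0.255, ETS2 by 1.91 ± 0.138 and SOX9, a regulator of cartilage-type matrix, from 7.63, 7.39 and 7.70 to 5.47, 5.83 and 5.83. The homeobox factor PRRX1 read 11.42, 11.65 and 11.60 against 13.35, 13.37 and 13.55, and TWIST2 (1.72 ± 0.237) and MEIS1 (1.25 ± 0.228) rose as well. Of 18 cadherin, junction and guidance genes 6 rose and 4 fell. Their median of 0.08 was 0.50 without P2 replicate 3. The gap junction protein GJA1 rose by 0.66 ± 0.159, whereas ephrin B2 (EFNB2) fell by 1.71 ± 0.146 and desmoplakin (DSP) by 1.43 ± 0.250.

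Splicing genes divided by class, in subgroups formed after the values were seen. Of 44 genes 21 rose and 11 fell, shares close to those of all genes. Of 14 proteins of the Sm and LSm rings and of the U1 and U2 particles 12 rose and 1 fell, with a median of 0.99, led by SNRPG, which read 11.15, 10.57 and 11.14 in P0 and 12.50, 12.46 and 12.46 in P2. Of 13 SR proteins and their CLK kinases, which act on exon choice, 7 fell and 3 rose. SRSF5 read 12.01, 11.93 and 11.65 against 9.43, 9.51 and 9.18, and the kinases CLK1 (-2.38 ± 0.209) and CLK4 (-2.10 ± 0.132) fell with it. SRSF6 fell by 1.28 ± 0.134 on its brightest probe set, while a different one was called higher. Among 26 chromatin genes 12 rose and 4 fell, and the share of rises, 46.2%, was near the 42.1% of all genes. HMGA1, an architectural protein of proliferating cells, read 5.69, 5.97 and 5.52 in P0 and 9.19, 8.87 and 8.95 in P2, the histone chaperone ASF1B rose at least 7.61-fold and the methyltransferase EZH2 by 2.13 ± 0.262. The demethylases KDM6A (-1.61 ± 0.168) and JMJD1C (-2.22 ± 0.144) were lower, and KDM1A higher (1.56 ± 0.129).

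Markers of the labelled cell type and of others were set beside these lists. Of 16 fibroblast and valve interstitial cell markers 9 fell and 1, S100A4, rose, with a mean level of 12.05 to 12.16 in P0 and 11.19 to 11.41 in P2. THY1, a surface marker of fibroblasts, read 13.88, 13.92 and 13.84 in P0 and 12.19, 11.52 and 12.25 in P2, and dermatopontin (DPT) fell by 4.11 ± 0.268. Of 11 smooth muscle or myofibroblast markers 7 rose and 3 fell, with a mean level of 9.28 to 9.69 against 10.06 to 10.16. Smooth muscle actin ACTA2 read 12.63, 12.02 and 12.65 against 15.24, 15.36 and 15.38, and caldesmon (CALD1) rose by 2.23 ± 0.113. RGS5, a gene of pericytes, read 8.14, 7.40 and 9.20 in P0 and 6.0, 5.25 and 5.25 in P2. ACTG2, the enteric actin, fell by 1.90 ± 0.240, though the mean over its probe sets was 0.45.

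Endothelial markers gave 0 rises and 2 falls among 13, with mean levels of 7.02 to 7.31 in P0 and 7.29, 7.59 and 5.74 in P2. Without P2 replicate 3 there were 2 rises and 1 fall. LYVE1, of lymphatic endothelium and some macrophages, fell at least 3.29-fold, and the NOS3 fall (-1.44 ± 0.462) was lost without P0 replicate 3 (adjusted p = 0.0646) or P2 replicate 3 (0.0780). S100B, known from Schwann cells and melanocytes and also from cartilage, read 11.71, 11.77 and 11.73 in P0 and 7.33, 6.88 and 8.22 in P2. MITF, a factor of melanocytes and other cells, fell by 1.13 ± 0.202, while SOX10, MBP and TYR of the same list were not called. Of 11 T, B and NK cell markers on the array 2 passed the filter, CD27 and CD3G, and both lay at the control level in both groups. Neither was called by limma, and 0 had an unadjusted p under 0.05. The platelet gene PPBP rose at least 2.86-fold, GP9 of the same list was called higher (0.51 ± 0.154; adjusted p = 0.0551 without P0 replicate 3 and 0.0517 without P2 replicate 1), hemoglobin HBB fell by 0.77 ± 0.119, and the mast cell list gave 1 rise (KIT, above) and 1 fall, GATA2 (-1.35 ± 0.118). Cardiac actin ACTC1 read 3.31, 4.43 and 3.65 against 5.82, 5.30 and 8.78, a rise of at least 4.14-fold that was at least 1.97-fold without P2 replicate 3 (adjusted p = 0.0495) and at least 6.57-fold without P2 replicate 2. The ACTC1 call was lost with values under the control level raised to it (adjusted p = 0.10). Among 5 adipocyte markers PPARG alone was called, at the control level in both groups.

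**Figure D5:**
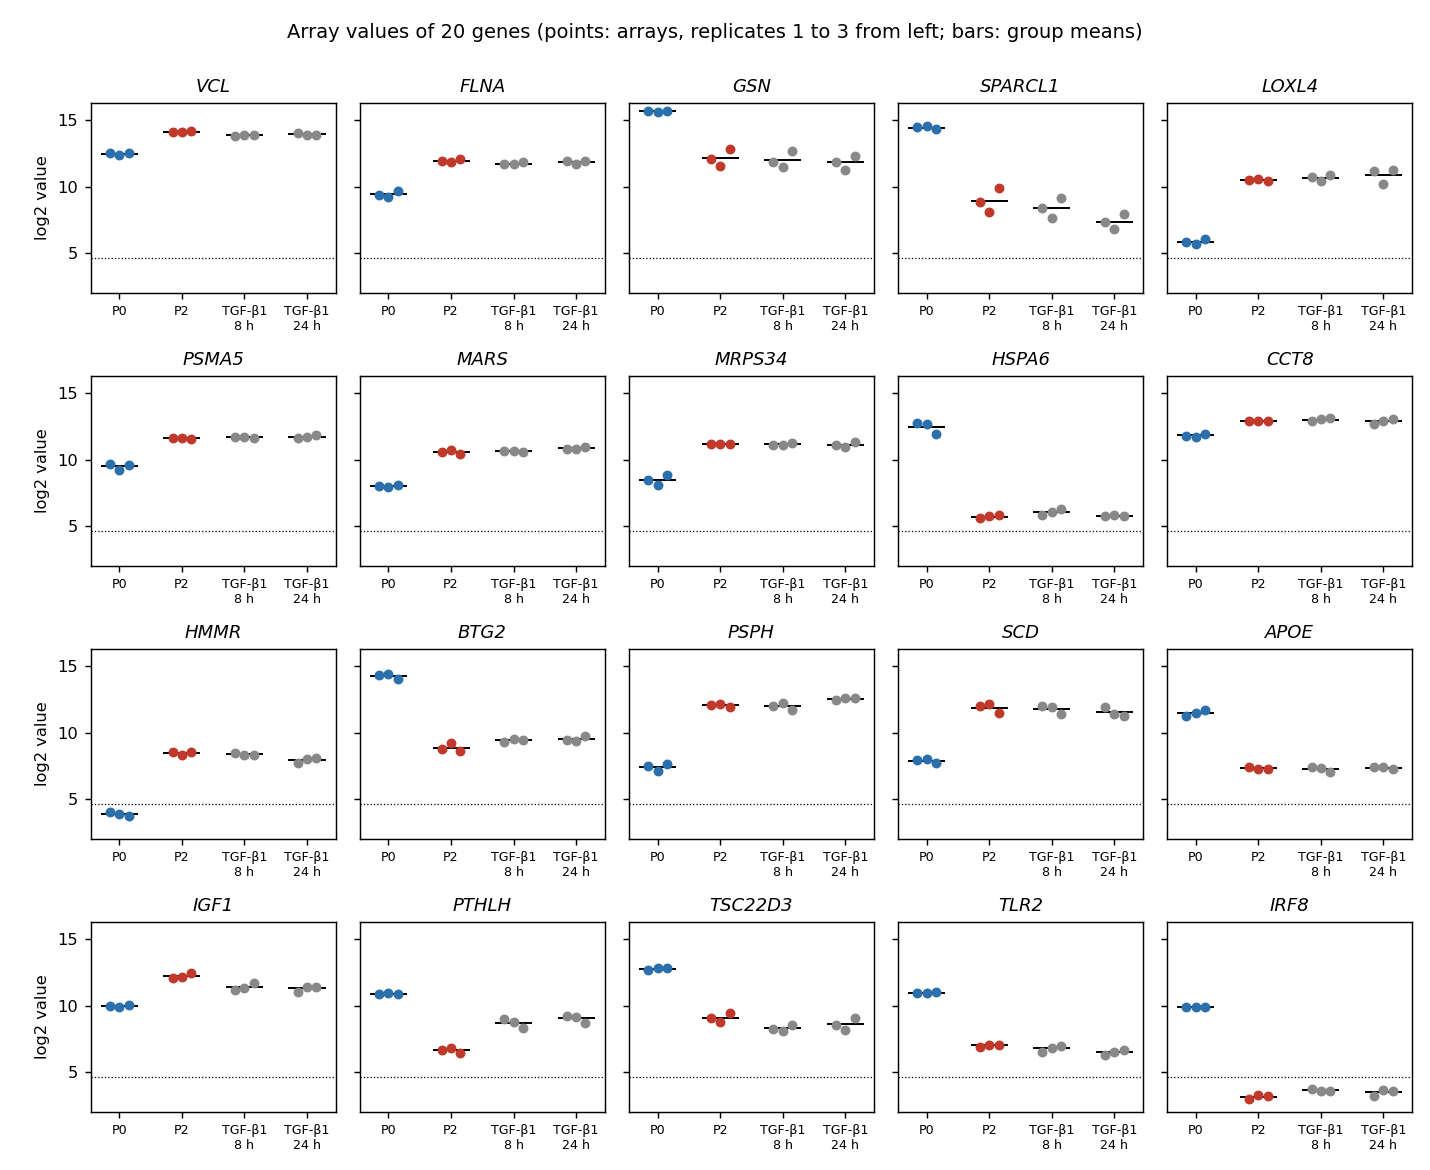
Log2 values of 20 of the named genes on all 12 arrays, with P0 in blue, untreated P2 in red and P2 with TGF-β1 for 8 h or 24 h in grey; bars are group means and the dotted line is the control level of 4.58. In each panel the 3 P0 and 3 P2 arrays do not overlap, for example 9.64, 9.23 and 9.60 against 11.65, 11.67 and 11.57 for PSMA5. The genes were picked from those named for large called changes, so this separation is no result. Over all genes 72% did not overlap.

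Values in the arrays with TGF-β1 are given side by side for a few genes picked after their values were seen, with no test. PSMA5 read 11.70, 11.72 and 11.60 at 8 h and 11.65, 11.71 and 11.84 at 24 h, MRPS34 11.13, 11.09 and 11.22 and then 11.12, 10.96 and 11.30, and BTG2 9.31, 9.56 and 9.41 and then 9.43, 9.41 and 9.73. PTHLH read 8.98, 8.74 and 8.35 at 8 h and 9.24, 9.18 and 8.71 at 24 h, between its P0 and P2 readings. PCOLCE2 read 12.78, 12.60 and 12.93 at 24 h, also between them. KITLG read 5.30, 5.45 and 5.76 at 8 h and 4.80, 4.99 and 4.99 at 24 h, against 6.78, 6.57 and 7.06 in untreated P2. Other genes lay further from P0 than untreated P2, such as ALDH1A1 with 6.36, 6.02 and 7.11 at 24 h and SPARCL1 with 7.31, 6.79 and 7.91.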

How the data were processed

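The deposited values are log2 expression per probe set, made by the authors with GCRMA per the submitters' processing notes, with no version given; background correction and quantile normalization are part of that method and assume similar overall distributions. Of 23999 probe sets, 64 controls were left out, and 17638 over log2 4 on at least 3 arrays were tested with limma 3.58.1 (R 4.3.3), in a fit of 4 group means over all 12 arrays with Benjamini-Hochberg adjustment over all tested probe sets. Calls need an adjusted p under 0.05. A gene is represented by its brightest probe set with 1 symbol (10069 probe sets have 1 symbol, 198 several, 13732 none), and 72 called genes have another probe set called the other way. Folds with a group mean under the control probe sets' 95th percentile, 4.58, are lower bounds.

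Named genes are the 20 largest changes each way among called genes whose P0 and P2 arrays did not overlap, up to 4 per list each way, and a fixed panel. Members and lists were chosen with earlier results of these data known, and subgroups by complex or function were formed after values were seen. Replicate numbers did not pair P0 with P2: same-numbered residuals correlated at -0.0723, -0.0261 and -0.0916. Same-numbered untreated and TGF-β1-treated P2 arrays did deviate together (0.348 to 0.679), so the fit of 12 arrays treats linked cultures as independent; a fit of the 6 P0 and untreated P2 arrays alone gave 5773 probe sets higher and 4442 lower, and 4 of the 333 called named genes were lost in it (COL11A1, COL1A2, FZD4 and OCLN). The number of arrays limits the precision (median standard error 0.159). On simulated data with 200 of 17638 probe sets changed by 1 log2 unit, 146 were recovered, with 6 false calls. The simulation changed a far smaller share than the 59.4% called here and drew all 12 arrays independently. Its rates of recovery and false calls therefore do not carry over to this comparison. When the arrays were scanned is not stated in the labels. Promoter motif counts were planned but not run. One gene list and 2 of its genes are not reported here.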

Additional observations from a re-analysis of the deposited data

How the results depend on the processing

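With 3 arrays a group, small changes of variable genes could not be resolved, and the absolute centring of the arrays cannot be checked. The 5933 higher and 4550 lower probe sets became 2543 and 2343 when a 2-fold change was also required. Leaving out any 1 of the 6 arrays gave 5427 to 5640 higher and 4150 to 4279 lower. With the replicate block the counts were 6237 and 4790; the numbers did not pair P0 with P2, and the block left all 333 called named genes called. Centring arrays on their medians gave 5310 and 5044, moving the higher share of calls from 56.6% to 51.3% and the median of all probe sets from 0.07 to -0.02. The other settings kept both counts within 1.5 times. Of the 340 named genes 333 were called, and 303 of those 333 passed in all 6 fits with an array left out. Taking the mean over all probe sets of a gene reversed ACTG2 to 0.45, BMP1 to 0.11, CDH11 to -0.066, COL1A2 to 0.89, FN1 to 0.045 and SLA-DMA to -0.80. Of 1692 list counts compared, 1570 stayed within 1.5 times.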
